A study of Mus musculus with 2 samples.

Results

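The Mir200 family, Mir203 and Mir205 are microRNA genes best known from epithelia, and their levels were measured by microRNA sequencing in the midbrain of mouse embryos of strain B6NCrl at embryonic day 12.5. The 7 genes were taken by gene symbol (Mir429, Mir200a, Mir200b, Mir200c, Mir141, Mir203 and Mir205) from the 1973 microRNA genes that the count tables list, and all 7 were among the 380 genes with at least 10 counts in both libraries. There were 2 libraries of 1 group, untreated and of healthy embryos of both sexes: replicate 2, a pool of midbrains from 88 embryos, and replicate 1, a pool from 120 embryos. No second tissue, treatment or genotype was sampled, so genes were compared with each other within a library, and replicate 2 was compared with replicate 1. Replicate 2 held 2805487 counts assigned to the own strand of a microRNA gene and replicate 1 held 4629302. Levels are given as counts per 1000000 of these (CPM), and 3 counts correspond to 1.07 CPM in replicate 2 and 0.648 CPM in replicate 1.

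MicroRNAs are short RNAs that lower the output of messenger RNAs which pair with their seed, bases 2 to 8 from the 5′ end. The Mir200 family holds epithelial cells in their epithelial state by repressing the transcription factors Zeb1 and Zeb2, and in the mouse it also acts in the olfactory epithelium and in neural progenitors of the midbrain and hindbrain. Mir203 is a microRNA of differentiating skin, where it represses the stem-cell factor Trp63, and Mir205 is one of basal layers and stem cells of skin and other stratified epithelia. The tissue here was bulk midbrain, so which cells held these microRNAs was not measured, and fewer cells of a type cannot be told apart from less RNA per cell.

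The mature sequences are shown first because they divide the Mir200 family in another way than its genes lie in the genome. They are RefSeq sequences on GRCm38.p6, matched by name for all 7 genes, 5′ to 3′, with the seed in capitals. For each hairpin the arm known as the main product is printed. The deposited counts are per gene and do not separate the arms.
miR-429-3p: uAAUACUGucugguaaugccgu
miR-200b-3p: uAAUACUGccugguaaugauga
miR-200c-3p: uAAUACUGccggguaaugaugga
miR-200a-3p: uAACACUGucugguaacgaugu
miR-141-3p: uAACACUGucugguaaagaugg
miR-203-3p: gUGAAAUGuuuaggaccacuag
miR-205-5p: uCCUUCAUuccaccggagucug

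Mir429, Mir200b and Mir200c share the seed AAUACUG, and Mir200a and Mir141 share AACACUG. Counted from 1 at the 5′ end, the seed of miR-200b-3p differs from that of miR-141-3p by the single substitution U4C. No mature microRNA of another gene in the RefSeq table carried either seed, and the seeds of Mir203 and Mir205 were each found in 1 mature microRNA only. Over 22 aligned positions, miR-200a-3p and miR-141-3p were identical at 20 and differed by C17A and U22G, and miR-200b-3p and miR-200c-3p were likewise identical at 20 and differed by U11G and A22G. The longest run that miR-200a-3p or miR-141-3p shared with another hairpin of the table was 16 bases, in each other. For the other 5 mature sequences it was 9 to 12 bases. Hairpins that overlap the gene's own position were left out of this search. For miR-203-3p that left out miR-203b, on the opposite strand, whose 5′ arm overlaps it by 20 bases. Whole mature reads therefore differed between any of these genes, although how many mismatches the alignment allowed is not given in the sources used here.

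In the genome the family forms 2 clusters, each mixing both seeds. On mm10, Mir429 (ENSMUSG00000065427.1, chr4:156053905-156053987), Mir200a (ENSMUSG00000065400.1, chr4:156054896-156054985) and Mir200b (ENSMUSG00000065549.2, chr4:156055681-156055750) lie within 1846 bases on the minus strand of chromosome 4. All of them are in introns of the protein-coding gene Ttll10 and within the non-coding gene Gm13648, an exon of which Mir429 overlaps. Mir200c (ENSMUSG00000065462.2, chr6:124718322-124718390) and Mir141 (ENSMUSG00000065474.1, chr6:124717914-124717985) lie within 477 bases on the minus strand of chromosome 6, intronic to the non-coding Gm15884. Mir203 (ENSMUSG00000065574.1, chr12:112130880-112130955, plus strand) lies within no annotated gene other than microRNA genes, which were not searched as hosts. Mir205 (ENSMUSG00000065533.1, chr1:193507463-193507530, minus strand) overlaps an exon of its non-coding host 4631405K08Rik.

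All 7 genes were detected well above the level of 3 counts, and the skin-type genes were the most abundant of them. Together the 7 held 3549 CPM in replicate 2 and 2764 CPM in replicate 1, that is 0.355% of the assigned counts in replicate 2 and 0.276% in replicate 1. Mir203 and Mir205 made up 2489 CPM of this in replicate 2 and 2105 CPM in replicate 1, and the 5 Mir200 family genes 1061 CPM in replicate 2 and 659 CPM in replicate 1. The median of the mean CPM over all 380 quantified genes was 147.7, so 4 of the 7 genes stood above it and Mir200b, Mir200a and Mir141 below it.

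Mir203 had 4599 counts (1639 CPM) in replicate 2 and 6703 counts (1448 CPM) in replicate 1. Its mean of 1544 ± 135.3 CPM (SD, n = 2) ranked 78 of the 380 quantified genes. Mir205 had 2383 counts (849 CPM) in replicate 2 and 3042 counts (657 CPM) in replicate 1, with a mean of 753 ± 136 CPM (SD, n = 2) and rank 114. Mir203 was thus the higher of the skin-type pair in both libraries, and the values of the 2 genes did not overlap.

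Among the Mir200 family, Mir429 was the highest, with 579 CPM in replicate 2 (1624 counts) and 347 CPM in replicate 1 (1606 counts). Mir200c followed with 255 CPM in replicate 2 (716 counts) and 161 CPM in replicate 1 (747 counts), and Mir200b with 153 CPM in replicate 2 (428 counts) and 99.4 CPM in replicate 1 (460 counts). These are the 3 genes of the AAUACUG seed, and each was higher in both of its libraries than the next gene was in either.
The genes of the AACACUG seed were the lowest. Mir200a had 39.9 CPM in replicate 2 (112 counts) and 26.4 CPM in replicate 1 (122 counts). Mir141 had 34.2 CPM in replicate 2 (96 counts) and 25.1 CPM in replicate 1 (116 counts). Their values overlapped, and within each library the ratio of Mir200a to Mir141 was not distinguishable from equality: 1.17 in replicate 2 (95% counting interval 0.888 to 1.53) and 1.05 in replicate 1 (0.816 to 1.36). Whether reads of these near-identical microRNAs were assigned to each other's gene was not tested. Mean levels of the 5 genes were 463 ± 164 CPM for Mir429, 208 ± 66.4 for Mir200c, 126 ± 37.6 for Mir200b, 33.1 ± 9.59 for Mir200a and 29.6 ± 6.48 for Mir141 (SD, n = 2).

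**Figure D1:**
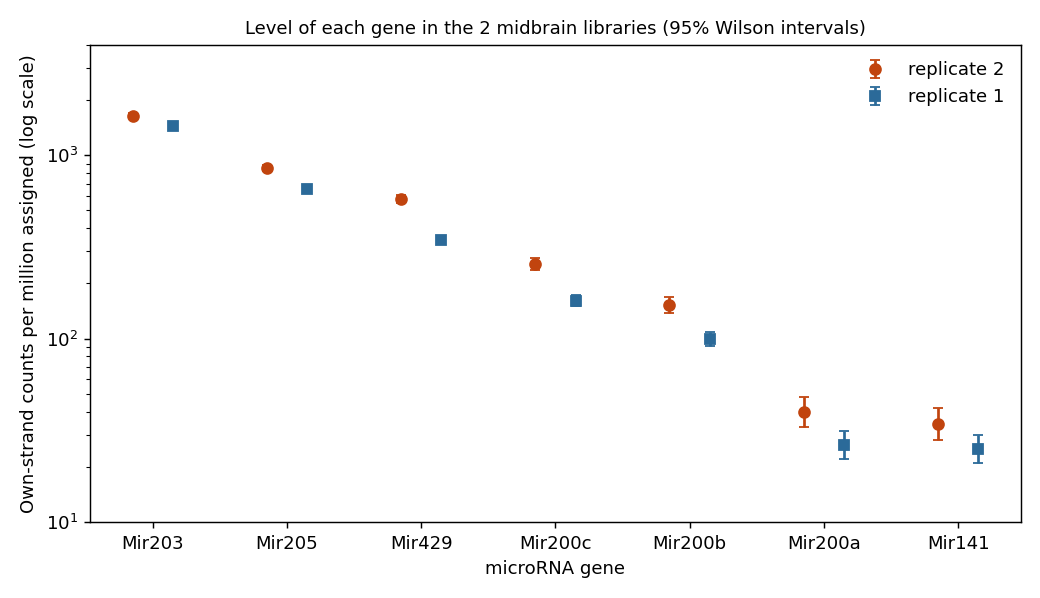
Level of each gene in CPM on a log axis, replicate 2 as circles left of replicate 1 as squares, with 95% Wilson intervals that cover counting error only. Mir203 is highest at 1639 and 1448 CPM, Mir200a and Mir141 are lowest, and every gene lies higher in replicate 2.

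The chromosome 4 cluster was the larger of the Mir200 clusters in both libraries, and most of its counts came from Mir429. Mir429, Mir200a and Mir200b summed to 2164 counts against 812 for Mir200c and Mir141 in replicate 2, and to 2188 against 863 in replicate 1. The ratio was 2.67 (95% counting interval 2.46 to 2.89) in replicate 2 and 2.54 (2.34 to 2.74) in replicate 1, a mean of 1.38 ± 0.05 on the log2 scale (SD, n = 2). The libraries differed in this log2 ratio by 0.07 (replicate 2 minus replicate 1, 95% counting interval -0.09 to 0.23). Without Mir429 the order turned round: the other 2 genes of the chromosome 4 cluster were lower than the whole chromosome 6 cluster. That log2 ratio was -0.59 (-0.75 to -0.43) in replicate 2 and -0.57 (-0.72 to -0.42) in replicate 1.

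Genes within a cluster were far from equal, in nearly the same proportions in both libraries. In the chromosome 4 cluster, Mir429 held 75.05% of the counts in replicate 2 (73.2 to 76.8%, 95% Wilson interval) and 73.4% in replicate 1 (71.5 to 75.2%). Mir200b held 19.8% in replicate 2 and 21.0% in replicate 1, and Mir200a 5.18% in replicate 2 and 5.58% in replicate 1. In the chromosome 6 cluster, Mir200c held 88.2% in replicate 2 (85.8 to 90.2%) and 86.6% in replicate 1 (84.1 to 88.7%), and Mir141 the rest.
The intervals of the 2 libraries overlapped for each of these genes. Mir429 exceeded Mir200a, 908 bases away, by 14.5-fold in replicate 2 (12.0 to 17.6) and 13.2-fold in replicate 1 (10.95 to 15.8). Mir200c exceeded Mir141 by 7.46-fold in replicate 2 (6.03 to 9.23) and 6.44-fold in replicate 1 (5.30 to 7.83). Over all 110 pairs of adjacent quantified microRNA genes on 1 strand within 10 kb, the absolute difference in log2 mean CPM had a median of 2.90 and quartiles of 1.505 and 5.42, and the 3 pairs here stood at 3.80, 1.93 and 2.81.

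Grouped by the seed of the printed arm instead of by cluster, the family was more lopsided in counts per gene. Those counts do not separate the arms and were not corrected for ligation. Mir429, Mir200b and Mir200c summed to 987 CPM in replicate 2 and 608 CPM in replicate 1, and Mir200a with Mir141 to 74.1 CPM in replicate 2 and 51.4 CPM in replicate 1. The ratio of the AAUACUG to the AACACUG group was 13.3 in replicate 2 (95% counting interval 11.6 to 15.3) and 11.8 in replicate 1 (10.4 to 13.5), a mean of 3.65 ± 0.12 on the log2 scale (SD, n = 2). In each cluster the lowest gene was the one with the AACACUG seed. This ratio kept its direction without Mir429, at a log2 ratio of 2.46 (2.25 to 2.67) in replicate 2 and 2.34 (2.14 to 2.54) in replicate 1.

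**Figure D2:**
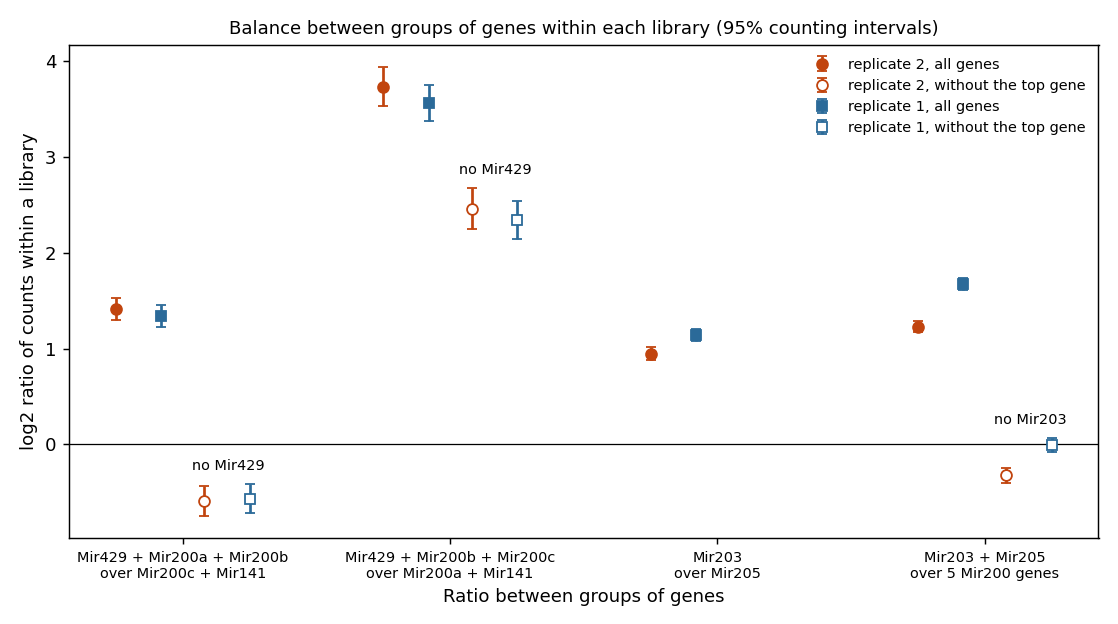
Log2 ratio of summed counts between groups of genes within each library, replicate 2 as circles left of replicate 1 as squares, with 95% counting intervals. Open symbols leave out the most abundant gene of the larger side. The cluster ratio falls below 0 without Mir429, while the seed group ratio stays above 2.

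What the seeds pair with can be read from a target transcript. Zeb2, on chromosome 2, is a known target of the family, and its messenger RNA was not measured here. In the 3′ UTR of its transcript with the longest 3′ UTR in GENCODE M21 (4941 bases), the complement of the AAUACUG seed, CAGTATT, occurred 5 times and that of the AACACUG seed, CAGTGTT, 4 times, on the transcript strand, with no overlap between the motifs. Of 885 3′ UTRs at least as long, the first 4941 bases held CAGTATT in 38.0% and CAGTGTT in 50.8%. At least 5 copies of CAGTATT stood in 0.0284% of all 21110 3′ UTRs, and at least 4 of CAGTGTT in 0.251%. These shares are not matched for length: all but 885 of the 3′ UTRs are shorter than that of Zeb2 and have less room for copies. The first and second match of each are shown with the match in capitals, numbered by the first base of the match in the 3′ UTR.
Zeb2, base 393: ctaccatacatCAGTATTttattattatt
Zeb2, base 458: ctacagtgcatCAGTATTacgattcctca
Zeb2, base 209: aaaattttgtaCAGTGTTaaggcctaaaa
Zeb2, base 741: ccatccttgtaCAGTGTTcagagggtaac
For Mir203, the complement of the seed, CATTTCA, occurred once in the 3064-base 3′ UTR of Trp63 on chromosome 16, where 34.9% of 3028 3′ UTRs at least as long held it within the same length. The match starts at base 2522. The same 3′ UTR held CAGTATT once and CAGTGTT 2 times, where 26.3% and 36.6% of the 3028 held them within that length.
Trp63, base 2522: ggactctgtggCATTTCAgcactatttag
These matches are letters in the annotation and say nothing of binding in these samples.

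Mir203 exceeded Mir205, which lies on another chromosome, by 1.93-fold in replicate 2 (95% counting interval 1.84 to 2.03) and by 2.20-fold in replicate 1 (2.11 to 2.30). The mean log2 ratio was 1.04 ± 0.14 (SD, n = 2). Here the libraries differed beyond the counting error of independent reads, by -0.19 on the log2 scale (replicate 2 minus replicate 1, -0.29 to -0.10). For the Mir200 seed group ratio the difference was 0.17 (-0.11 to 0.45). The skin-type pair together exceeded the 5 Mir200 family genes by 2.35-fold in replicate 2 (2.25 to 2.45) and by 3.19-fold in replicate 1 (3.07 to 3.33). This balance moved most, with a difference of -0.45 on the log2 scale (-0.53 to -0.36). Without Mir203 it was lost: Mir205 alone stood below the family in replicate 2, at a log2 ratio of -0.32 (-0.40 to -0.24), and level with it in replicate 1, at -0.004 (-0.08 to 0.07).

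All 7 genes were higher in replicate 2 than in replicate 1, the Mir200 family by more than Mir203 and Mir205. By Fisher's exact test (two-sided, a gene's counts set against the remaining counts of each library, p-values adjusted over the 380 quantified genes by the Benjamini-Hochberg method), 6 of the 7 were called higher and none lower, and Mir141 was not called. The background is large, since 54.2% of all quantified genes were called in either direction and 27.1% were called higher. The test sets these libraries against counting noise and compares no condition. With 2 pools, the spread between pools cannot be separated from the difference tested.

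Mir429 was 1.67-fold higher in replicate 2, with a log2 ratio of 0.74 ± 0.05 (counting SE, adjusted p = 1.29e-46 by the exact test). The other genes of its cluster had log2 ratios of 0.62 ± 0.10 for Mir200b and 0.60 ± 0.19 for Mir200a, and Mir200c of the chromosome 6 cluster had 0.66 ± 0.08. Their adjusted p-values by the exact test were 8.17e-10 for Mir200b, 0.00415 for Mir200a and 1.49e-17 for Mir200c. Mir141 had 0.45 ± 0.20, which was not called (adjusted p = 0.0511 by the exact test) but was called with library sizes scaled by edgeR's TMM (adjusted p = 0.0354). It was not called with DESeq2 size factors (adjusted p = 0.0718 by the exact test) or with either-strand counts (adjusted p = 0.0506 by the exact test). Its interval, 0.06 to 0.84, covers the values of the other 4 family genes. Mir205 had a log2 ratio of 0.37 ± 0.04 (adjusted p = 5.49e-20 by the exact test) and Mir203 the smallest, 0.18 ± 0.03, that is 1.13-fold (adjusted p = 3.60e-10 by the exact test).

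Against all quantified genes, whose log2 ratios had a median of 0.04, quartiles of -0.21 and 0.27 and 5th and 95th percentiles of -0.66 and 0.71, the family stood high. Mir429 lay above 95.8% of genes, Mir200c above 92.6%, Mir200b above 91.6%, Mir200a above 91.1% and Mir141 above 85.0%. Mir205 lay above 81.1% and Mir203, at 67.4%, within the quartiles. The median of the 7 was 0.60. Of the 7, 4 were called and at least 1.5-fold higher, namely Mir429, Mir200c, Mir200b and Mir200a, as were 8.16% of all quantified genes. This count depends on the scaling. With DESeq2 size factors Mir200b (log2 ratio 0.582) and Mir200a (0.563) fell just below 1.5-fold. Mir429 (0.703) and Mir200c (0.625) stayed above it. The share of all genes at 1.5-fold was not computed for that scaling.

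**Figure D3:**
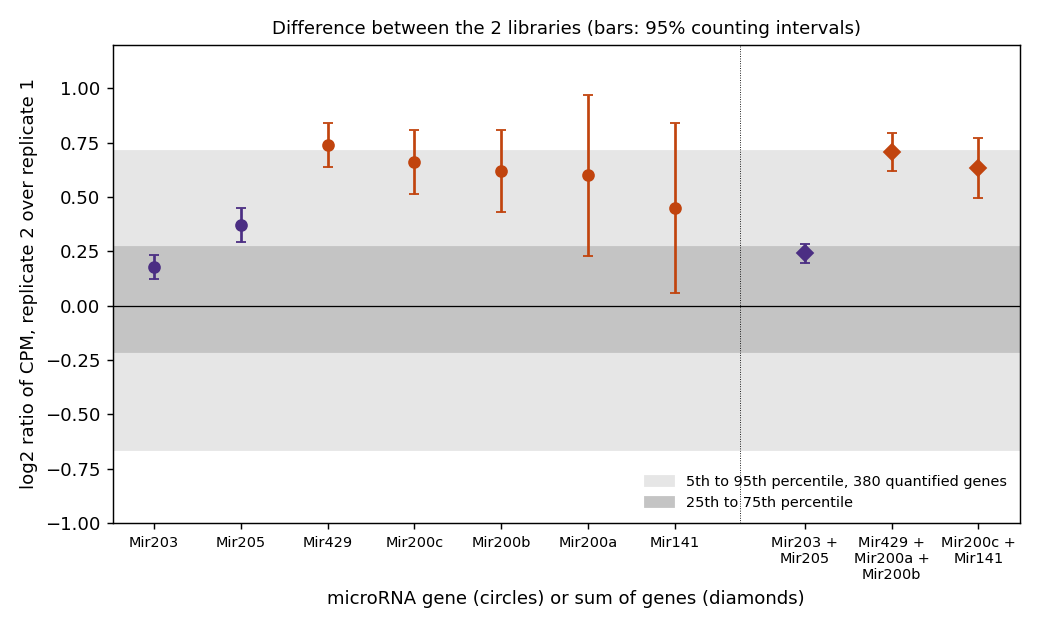
Log2 ratio of CPM, replicate 2 over replicate 1, for each gene (circles) and for sums of genes (diamonds), with 95% counting intervals. The bands are the middle of the 380 quantified genes. The 5 Mir200 family genes lie between 0.45 and 0.74, and Mir203 lies at 0.18, inside the inner band.

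The Mir200 clusters, on different chromosomes, had like ratios between the libraries, and their difference is the 0.07 (-0.09 to 0.23) given above. The summed log2 ratio was 0.71 for the chromosome 4 cluster (95% counting interval 0.62 to 0.79) and 0.63 for the chromosome 6 cluster (0.50 to 0.77), against 0.24 for Mir203 with Mir205 (0.20 to 0.29). The difference between the skin-type pair and the family is the one given above, -0.45, and it does not depend on how the libraries are scaled.

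**Figure D4:**
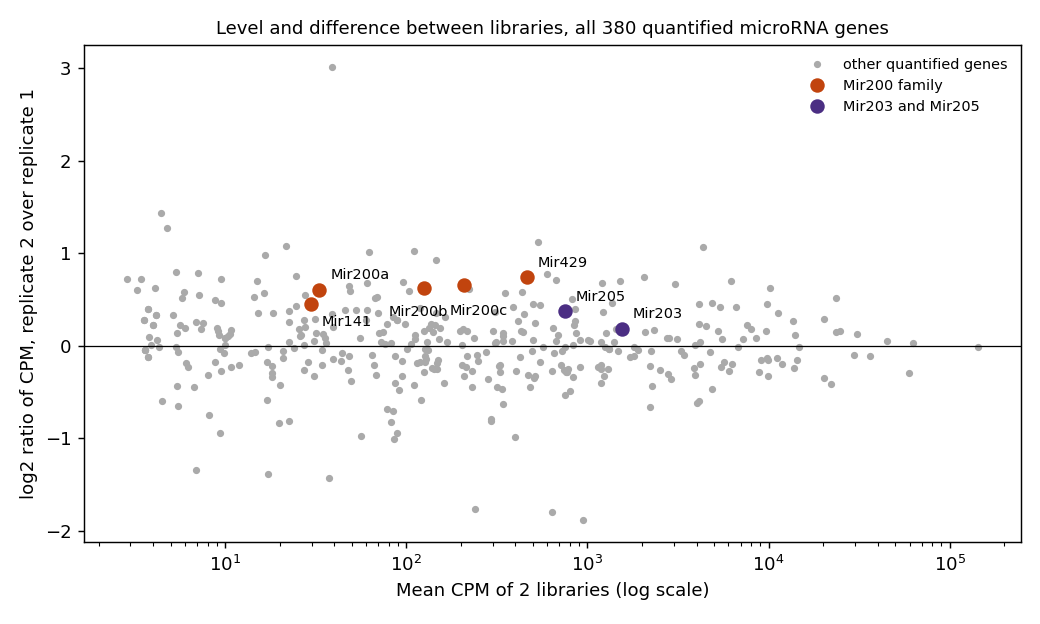
Mean CPM on a log axis against the log2 ratio of replicate 2 over replicate 1 for all 380 quantified genes, with the 7 genes in colour. The Mir200 family spans 29.6 to 463 CPM at ratios between 0.45 and 0.74, among genes of like level that lie on both sides of 0.

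Markers of other cell types also differed between the libraries, and their part in the result was not tested. The lists were chosen with earlier results of these data known. The counts called in each list stand against 27.1% of all 380 quantified genes called higher and 27.1% called lower. Neural microRNAs, of which 8 of 9 were found by symbol, had 35006 CPM in replicate 2 and 27567 CPM in replicate 1, mostly from Mir92b and Mir137, with 1 of 6 quantified genes called higher and 3 lower. Their summed level was higher in replicate 2 while their median log2 ratio was -0.08. The defining neuronal Mir124a-1 had 3 counts in replicate 2 and 28 in replicate 1, the highest of its copies, Mir124a-2, had 40 and 69, and reads that fit several copies are not in these counts.
Mesenchymal microRNAs had 23591 CPM in replicate 2 and 15707 CPM in replicate 1, with 6 of 7 called higher and a median log2 ratio of 0.46. Hox cluster microRNAs, which mark tissue behind the midbrain, had 419 CPM in replicate 2 and 225 CPM in replicate 1, with all 4 quantified genes called higher (median 0.81) and Mir196a-1 at 0 in both libraries. Liver Mir122 had 69.5 CPM in replicate 2 and 8.64 CPM in replicate 1. Leukocyte microRNAs, 4 of 5 found, had 769 CPM in replicate 2 and 607 CPM in replicate 1, with 3 of 4 called higher and Mir155 called lower. Their median log2 ratio was 0.66. Endothelial Mir126a had 26243 CPM in replicate 2 and 23434 CPM in replicate 1.

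A list of other epithelial, sensory and endocrine microRNAs had 5687 CPM in replicate 2 and 4581 CPM in replicate 1, with 3 of 7 quantified genes called higher, 2 lower and a median of 0.24. Within it Mir183 had a log2 ratio of 0.70, and of the same cluster Mir96 had 0.45 and Mir182 -0.05. Mir375 had 0.78. The lower call of Mir182 was narrow (adjusted p = 0.0491 by the exact test), and the other lower call was Mir194-2, at -0.40. The ciliated and choroid plexus list fell to 1444 CPM in replicate 2, against 3268 CPM in replicate 1, through Mir449a and Mir204, while 3 of its 5 quantified genes were not called. The erythroid list had 271 CPM in replicate 2 and 413 CPM in replicate 1, with Mir451a called lower and Mir486 higher.

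**Figure D5:**
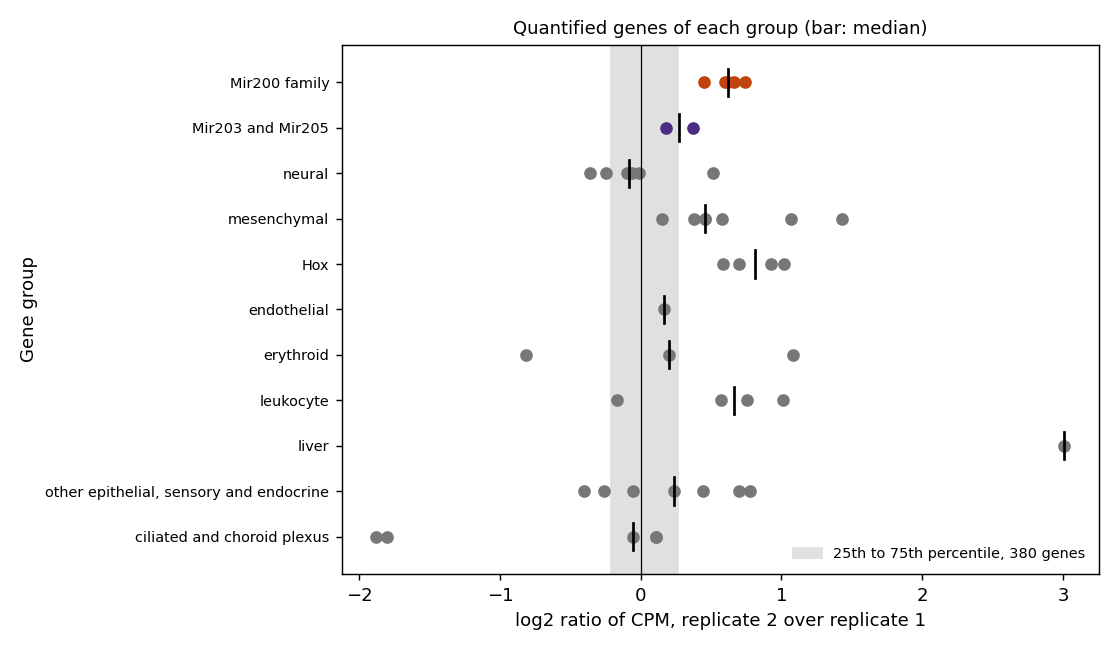
Log2 ratio of CPM, replicate 2 over replicate 1, of each quantified gene in each group, with the median as a bar and the quartile range of all 380 genes shaded. Medians are 0.62 for the Mir200 family, 0.66 for the leukocyte list, 0.46 for the mesenchymal list and 0.81 for the Hox list. The other epithelial, sensory and endocrine list has 0.24 and the erythroid list 0.20. The ciliated and choroid plexus list has -0.05 and the neural list -0.08. Endothelial Mir126a (0.16) and liver Mir122 (3.01) are lists of 1 gene.

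The genes most like the 7 in level over the 2 libraries, by Euclidean distance in log2(CPM + 1), were Mir674 for Mir203 (distance 0.14), Mir676 for Mir205 (0.18), Mir199b for Mir429 (0.15), Mir128-1 for Mir200c (0.14), Mir493 for Mir200b (0.18), Mir7j for Mir200a (0.01) and Mir1930 for Mir141 (0.16). Mir199b, of the mesenchymal list, had 520 CPM in replicate 2 and 348 CPM in replicate 1. With only 2 libraries, such likeness rests on level and a single ratio.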

How the data were processed

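Small RNA below 30 nucleotides from 2 pools of embryonic day 12.5 mouse midbrain was sequenced. The authors deposited raw counts per microRNA gene for either, own and opposite strand, derived from alignments to mm10 with annotation M4, per the deposited read-me files. Which aligner and counter made them is not given in the sources used here. Own-strand counts were used, 97.5% of either-strand counts in replicate 2 and 97.6% in replicate 1. Rows that name no gene, 58.2% of reads in replicate 2 and 56.9% in replicate 1, stayed out of totals and tests. They include the 33.4% of reads in each library that aligned to several places. Symbols and positions came from GENCODE M21 on GRCm38, the assembly of mm10, in which 1894 of 1973 identifiers were found.

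Mature microRNAs were taken to be read end to end, so levels were not divided by hairpin length. Adapter ligation can favour some sequences, and levels of different microRNAs carry that error. Tests were Fisher's exact tests (scipy 1.17.1) over all genes with at least 10 counts in both libraries, called at an adjusted p of 0.05, and were checked on simulated counts. The simulated counts held counting noise only, so this check does not cover the spread between pools. Within-library ratios have 95% intervals from the counts, and log2 ratios are replicate 2 over replicate 1. All intervals cover counting error only. They treat each read as independent, and PCR copies are not independent molecules, so the intervals may be too narrow. Alternatives used edgeR 4.0.16 and DESeq2 1.42.0 scaling. Members, lists and tests were chosen with earlier results of these data known. The naming rule gives all 7 genes, the nearest gene in level to each, and at most 2 genes of a marker list; marker genes named beyond that were chosen after their values were seen.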

Additional observations from a re-analysis of the deposited data

Results flagged for a closer look

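Reads on the strand opposite to Mir203 are in no comparison above. Replicate 2 held 45 of them and replicate 1 held 90, more than the 3 counts that a count of 0 allows. They were 0.969% of the reads on either strand there in replicate 2 (0.725 to 1.29%, 95% Wilson interval) and 1.32% in replicate 1 (1.08 to 1.63%). RefSeq places another microRNA, miR-203b, on that strand, and its 5′ arm overlaps miR-203-3p by 20 bases (sequence from RefSeq on GRCm38.p6, 5′ to 3′, no part marked).
miR-203b-5p: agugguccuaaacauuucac
The other 6 genes had no opposite-strand read in either library, apart from 1 at Mir200c in replicate 1.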

How the results depend on the processing

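All 7 genes stayed higher in replicate 2 in the 21 values with TMM scaling, DESeq2 size factors or either-strand counts. Either scaling shifts the log2 ratios of all genes by the same amount, so these are not 21 separate checks. The number called higher was 6 of 7 with DESeq2 size factors (23.4% of all genes tested called higher), with either-strand counts (27.6%) and with a minimum of 1 count in either library (13%), 7 of 7 with TMM (30.8%), and 6 of 6 with a minimum of 100 counts (36.7%), which Mir141 did not reach. With all reads in the file as denominator, the summed levels were 1337 per 1000000 reads for all 7, 364 for the Mir200 family and 973 for Mir203 with Mir205. With Mir99a left out of the total, the skin-type sum was 2680 CPM. Per base of the hairpin, an alternative added after seeing the data, the mean log2 cluster ratio was 1.17 and that of Mir203 to Mir205 was 0.88. Without Mir429 the cluster ratio was -0.58 and the seed group ratio 2.40, and without Mir203 the ratio of the skin-type pair to the family was -0.16. The mean cluster ratio and the mean skin-type ratio thus changed sign without these genes, and the seed group ratio did not. The top gene was left out of the larger side only, and the smaller side was kept whole. These values therefore do not show that 1 gene alone sets a direction. Leaving out Mir203 from the ratio to Mir205 left no gene and was not run. With 2 libraries, the value without either is that of the other, given above. The ratio between libraries needs both, so no such value exists for it. No paired analysis was possible because there was 1 group. Mir200a and Mir141 rest on only 96 to 122 counts a library.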
